A study of Mus musculus with 37 samples.

Results

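Adult and adolescent mice that had both received antibiotics and morphine were compared for gene expression in the cortex. The 9 libraries were 4 from adults (replicates 1, 2, 3 and 5) and 5 from adolescents (replicates 1 to 5), out of 37 libraries in the study, and they were chosen by their labels alone. Adult replicate 4 held 58764 counts and was left out, because libraries with fewer than 1000000 counts were not used. All mice were wild-type C57BL/6J males. Treatment began on postnatal day 55 in the adults and on postnatal day 25 in the adolescents. Both groups received antibiotics by mouth. Both also received injections of morphine at 15 mg/kg under the skin for 5 days, so neither group was untreated. The other 6 groups were adults and adolescents of the same strain and sex given antibiotics with saline, water with morphine, or water with saline. They were used to set the age difference beside that in other treatments, and to help estimate the spread between libraries. The tissue is labelled as brain with all cell types, and as medial prefrontal cortex in the title of the series. Polyadenylated RNA was counted per gene, and the antibiotics are not named in the sources used here. The labels number the libraries but do not say whether each came from a separate mouse. The p-values therefore rest on a spread between libraries that may be technical. That spread was estimated over the 35 libraries of the 8 groups, not over these 9 alone.

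The prefrontal cortex matures late. Between adolescence and adulthood its neurons lose the transcripts of neurite growth, new oligodendrocytes wrap axons in myelin, and the matrix around synapses changes its composition. Neurons also switch on immediate early genes within minutes of activity, and many of the proteins so made are transcription factors. Morphine acts on opioid receptors, and opioid exposure in mice is known to alter both myelin genes and activity-dependent genes.

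Libraries held 13373978 to 17467680 counts in adults and 14105449 to 31560468 counts in adolescents. Slc17a7, which loads glutamate into the synaptic vesicles of excitatory neurons, stood at 1540 to 1595 CPM (counts scaled to a library of 1000000) in adults and at 1735 to 1937 CPM in adolescents. Tbr1, a transcription factor of deep cortical layers, stood at 160 to 195 CPM in adults and at 162 to 186 CPM in adolescents. The ranges of Slc17a7 did not overlap. The 24 tested genes of cortical layer neurons summed to 2879 to 2985 CPM in adults and to 3129 to 3316 CPM in adolescents. In the comparison below 0 of them passed (lowest adjusted p = 0.0971, edgeR). A few libraries stood apart. The summed level of 14 genes of meningeal fibroblasts, the cells of the brain's covering, was 2834 CPM in adult replicate 1, against 398 to 764 CPM in the other 3 adults and 325 to 632 CPM in the adolescents. The summed level of 20 genes of mature oligodendrocytes and myelin was 2456 to 3581 CPM in adults, against 7251 CPM in adolescent replicate 4 and 3092 to 4202 CPM in the other 4 adolescents. Long nuclear RNAs such as Malat1 summed to 7596 and 7018 CPM in adult replicates 2 and 5, against 3481 and 3656 CPM in the other adults and 3677 to 5288 CPM in the adolescents. Adolescent replicates 1, 3 and 4 held 1057, 628 and 526 counts of pancreatic islet hormone genes, and each of the other 6 libraries held 5 or fewer.

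**Figure D1:**
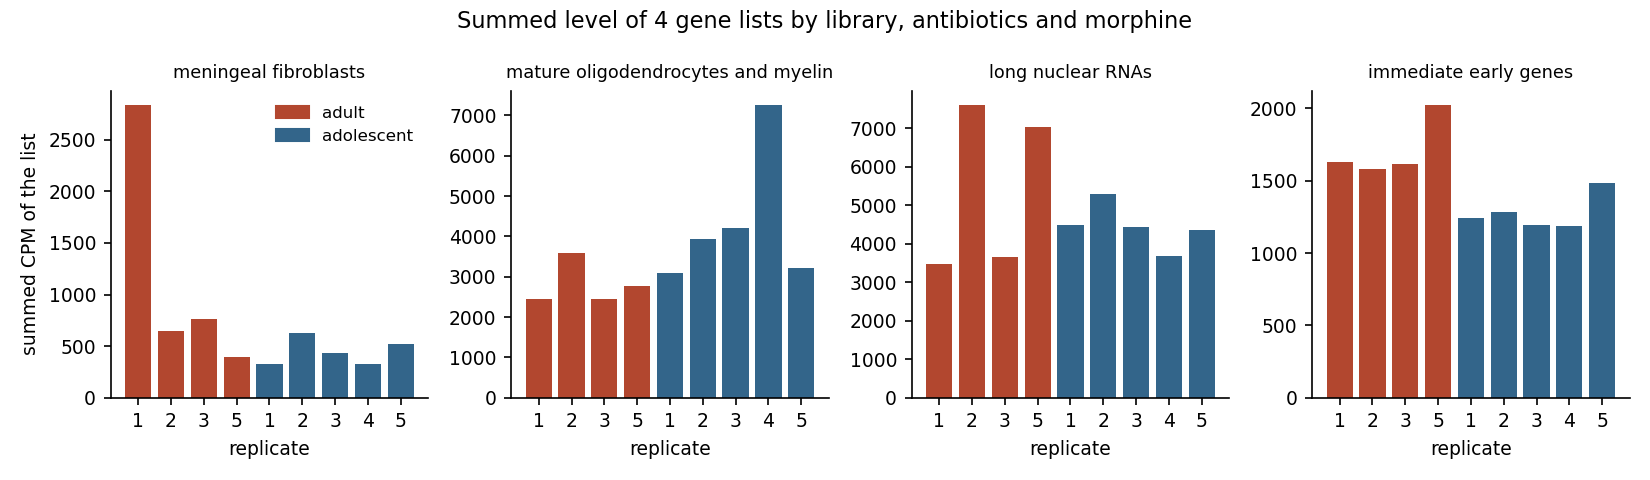
Summed CPM (vertical axis) of 4 gene lists in each library with antibiotics and morphine, adults (red) left of adolescents (blue), numbered by replicate. Adult replicate 1 is high in meningeal genes (2834 CPM), adolescent replicate 4 in myelin genes (7251 CPM), adult replicates 2 and 5 in long nuclear RNAs (7596 and 7018 CPM), and all adults lie above all adolescents in immediate early genes.

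Of 19332 genes tested, 362 differed between adults and adolescents (1.87%), at an adjusted p under 0.05 in edgeR's quasi-likelihood test with Benjamini-Hochberg adjustment. In adults 143 were higher (0.74%) and 219 were lower (1.13%). The differences were small, with 321 of the 362 under 1.5-fold. The median log2 fold change, adult over adolescent, was 0.32 among the genes that were higher and -0.29 among those that were lower, against 0.01 over all genes tested. Over all genes tested, 10164 had positive values and 9168 negative ones. Counts of list members given below are to be read beside these and the shares called. Changes of at least 2-fold were seen in 14 of the genes that were higher and in 4 of those that were lower. How many genes passed depended on single libraries, from 108 without adult replicate 2 to 499 without adult replicate 3. A total of 76 genes, 23 higher and 53 lower, passed in the full fit and in each of the 9 fits that left out 1 library.

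Some single genes of growing neurites were lower in adults, while the list of axon growth and guidance genes held no such call. Of its 24 tested genes 0 fell, 23 did not pass and Nrp2, a semaphorin receptor, rose by 0.38 (adjusted p = 0.0452, edgeR). Nrp2 passed in 2 of the 9 fits that left out 1 library, and the median of the list was -0.06. Marcksl1 (ENSMUSG00000047945), which encodes an actin-regulating membrane protein of growing neurites, fell the most among the named genes that passed. It stood at 67.3, 66.4, 65.2 and 59.2 CPM in adults, and at 119, 112, 130, 131 and 134 CPM in adolescents. Every adult library was well below every adolescent one. The log2 fold change was -0.96 (SE 0.10, adjusted p = 1.49e-06, edgeR), and it lay between -1 and -0.92 when any 1 library was left out. Tubb3, the beta-tubulin of neurons, stood at 259, 227, 283 and 261 CPM in adults, and at 313, 325, 320, 324 and 329 CPM in adolescents. Its groups did not overlap, and it fell by 0.32 on the log2 scale (adjusted p = 0.00178, edgeR). Apc, the scaffold of beta-catenin breakdown that also binds microtubules, averaged 401 ± 7.92 CPM in adults (SD, n = 4) and 531 ± 20.5 CPM in adolescents (SD, n = 5), again without overlap, and fell by 0.40 (adjusted p = 0.000119, edgeR).

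Of 17 tested genes of immature neurons, 0 rose, 3 fell (Marcksl1, Tubb3 and Stmn2) and 14 did not pass. Their median log2 fold change was -0.28, and 16 of the 17 had a negative value. Over all 19332 genes tested, 9168 had negative values and 1.13% were called lower. Stmn2, a microtubule regulator of growth cones, fell by 0.28 but passed in only 2 of the 9 fits that left out 1 library (adjusted p = 0.188 without adult replicate 2, edgeR). The count of genes that fell was 2 to 6 across those fits. Several members had large values without passing, among them Cd24a, a surface protein of young neurons (log2 fold change -1.08, adjusted p = 0.15, edgeR), and Nrep (-0.66, adjusted p = 0.0582). Dcx, which marks migrating young neurons, was at -0.16. In bulk tissue, fewer cells of a type and less RNA per cell cannot be told apart.

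**Figure D2:**
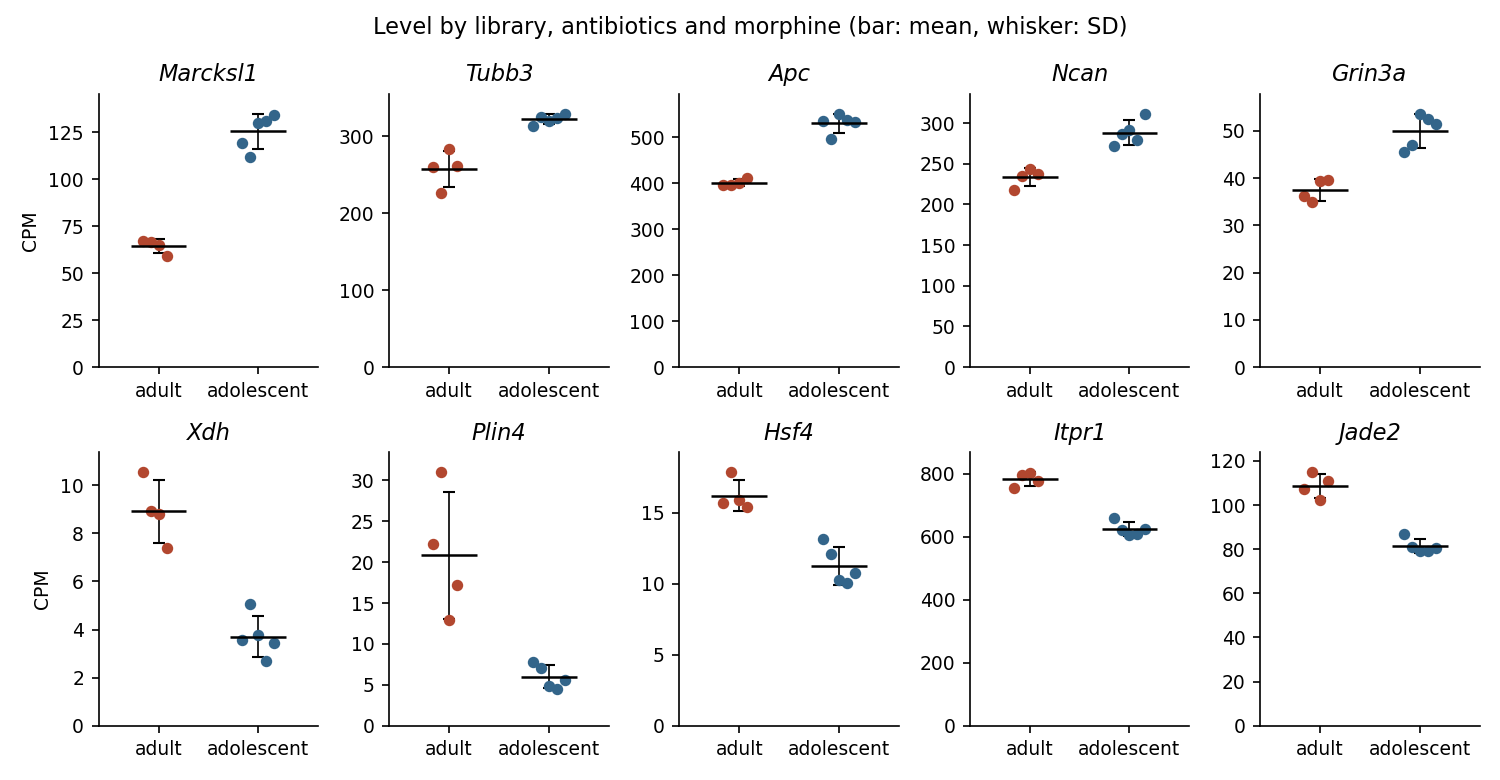
CPM (vertical axes, from 0) of 10 genes in each library with antibiotics and morphine, adults (red) left of adolescents (blue), with the mean as a bar and the SD as a whisker. The upper 5 genes are lower in every adult library than in any adolescent one, and the lower 5 are higher.

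A few components of the brain's extracellular matrix and of glutamate receptors were lower as well. Ncan, the proteoglycan neurocan of the perineuronal matrix, stood at 218, 235, 243 and 238 CPM in adults, and at 271, 287, 291, 279 and 311 CPM in adolescents. It fell by 0.30 on the log2 scale, with an SE of 0.06 (adjusted p = 0.00195, edgeR), and no adult library reached the lowest adolescent one. Hapln1, a link protein that ties such proteoglycans to hyaluronan, averaged 16.6 ± 2.48 CPM in adults (SD, n = 4) and 20.9 ± 2.21 CPM in adolescents (SD, n = 5). Its groups overlapped, and it was at the threshold (log2 fold change -0.33, adjusted p = 0.04997, edgeR) and passed in 2 of the 9 fits that left out 1 library (adjusted p = 0.231 without adult replicate 2). Of the 18 matrix genes tested, 0 rose, 2 fell and 16 did not pass, with a median of -0.06. Acan, the aggrecan core protein of perineuronal nets, was at 0.14 (adjusted p = 0.79).

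Grin3a encodes the GluN3A subunit, which is abundant in NMDA receptors of juvenile synapses. It stood at 36.2, 34.8, 39.5 and 39.5 CPM in adults, and at 45.4, 46.9, 53.6, 52.5 and 51.4 CPM in adolescents. The groups did not overlap, and the gene fell by 0.41 on the log2 scale (adjusted p = 0.00417, edgeR). Cnih2, an auxiliary subunit of AMPA receptors, averaged 175 ± 9.95 CPM in adults (SD, n = 4) and 215 ± 12.5 CPM in adolescents (SD, n = 5), and fell by 0.29 (adjusted p = 0.00538, edgeR). Cacng4, another AMPA receptor auxiliary subunit, fell by 0.45 (adjusted p = 0.0314) and Grm7, a presynaptic metabotropic receptor, by 0.29 (adjusted p = 0.0291). Each of these last 2 passed in 3 of the 9 fits that left out 1 library (adjusted p = 0.128 for Cacng4 without adult replicate 5, and 0.131 for Grm7 without adult replicate 1, edgeR). Of 30 tested glutamate receptor genes, 0 rose, 4 fell (2 to 4 when 1 library was left out, with 2 without adult replicate 1 or 2 or adolescent replicate 5) and 26 did not pass, and the median was -0.10. The main NMDA subunit genes Grin1, Grin2a and Grin2b were at -0.11, -0.03 and -0.01 and did not pass.

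Other synaptic and channel genes gave few calls. Of 18 tested genes of GABA receptors and chloride transport, 0 passed, the median was -0.02 and values ran from -0.13 to 0.07. None of 30 voltage-gated channel genes passed, with a median of -0.01. The same channel list had a median of 0.11 and 10 members higher in adults in the average of the other 3 treatments, where 6.54% of all genes were higher, a contrast with more libraries. Among 8 opioid receptor and peptide genes 0 passed. Oprm1, the mu opioid receptor, stood at 3.49, 2.29, 3.34 and 5.11 CPM in adults and at 3.97, 3.84, 4.20, 4.03 and 3.38 CPM in adolescents. These ranges overlapped (log2 fold change -0.12, adjusted p = 0.802, edgeR). Of 32 tested effectors of opioid signalling, Gnb4, a G protein beta subunit, fell by 0.46 (adjusted p = 0.0354), and 31 did not pass. Gnb4 passed in 1 of the 9 fits that left out 1 library (adjusted p = 0.117 without adult replicate 2, edgeR).

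In the oligodendrocyte lineage few single genes passed. Newly formed oligodendrocytes were represented by 13 tested genes, of which 2 fell and 0 rose, while 11 did not pass (median -0.34). Without adult replicate 1, 2 or 5, 0 of them passed. Fyn, a kinase that acts early in myelination, stood at 101, 105, 107 and 99.1 CPM in adults, and at 124, 122, 115, 121 and 118 CPM in adolescents. The adult values all lay lower, and it fell by 0.22 on the log2 scale (adjusted p = 0.0224, edgeR), passing in 6 of the 9 fits that left out 1 library (adjusted p = 0.087 without adult replicate 5). Rras2, a small GTPase, fell by 0.34 (adjusted p = 0.0452) and passed in 1 of those fits (adjusted p = 0.133 without adult replicate 5). Of the 12 precursor genes 0 passed, and the median was -0.22. All 12 had negative values, as did 9168 of all 19332 genes tested. Gpr17, a receptor of differentiating precursors, was at -0.59 (adjusted p = 0.063, edgeR). Of the 20 myelin genes 0 passed, with a median of -0.52. Mbp, myelin basic protein, averaged 1146 ± 263 CPM in adults (SD, n = 4) and 1718 ± 688 CPM in adolescents (SD, n = 5), with overlap (log2 fold change -0.58, adjusted p = 0.682). The myelin median was -0.32 without adolescent replicate 4, whose summed myelin level stood apart, and -0.72 without adult replicate 2. The newly formed oligodendrocyte list summed to 1004 CPM in the same adolescent library, against 607 to 727 CPM in adults and 770 to 833 CPM in the other 4 adolescents, and its part in these values was not tested beyond leaving it out.

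In sterol synthesis, which growing membranes and myelin need, some genes were lower in adults. Insig1, which holds the sterol-sensing machinery in the endoplasmic reticulum, stood at 54.1, 48.4, 60.9 and 53.0 CPM in adults, and at 68.5, 67.7, 76.6, 75.3 and 70.7 CPM in adolescents. Its groups did not overlap, and it fell by 0.41 on the log2 scale (adjusted p = 0.00105, edgeR). Mvd, a decarboxylase of cholesterol synthesis, fell by 0.39 (adjusted p = 0.0358), but passed in 1 of the 9 fits that left out 1 library (adjusted p = 0.144 without adult replicate 2, edgeR). Of 19 tested genes of cholesterol synthesis and transport, 0 rose, 3 fell and 16 did not pass, with a median of -0.21 and 17 negative values. Over all 19332 genes tested, 9168 had negative values and 1.13% were called lower. The count of list members that fell was 1 to 4 when 1 library was left out. It was 1 without adult replicate 1 or 2 or without adolescent replicate 3, 4 or 5.

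Other genes with small p-values among those that fell serve varied functions. Maz, a zinc finger transcription factor, averaged 143 ± 1.81 CPM in adults (SD, n = 4) and 184 ± 7.70 CPM in adolescents (SD, n = 5), a fall of 0.36 on the log2 scale (adjusted p = 1.05e-05, edgeR). Bdh1, a ketone body dehydrogenase of mitochondria, fell by 0.32, and Arsb, the lysosomal arylsulfatase B, by 0.28. Slc15a3, a lysosomal peptide and histidine transporter, fell by 0.60, and Atxn7l3b, Clec2l and Tmem151a fell by 0.33, 0.49 and 0.29. All of these passed in each fit that left out 1 library. Rps2 was the single member of 32 cytosolic ribosomal protein genes that fell (by 0.24, adjusted p = 0.0127), and it did not pass without adult replicate 2 (adjusted p = 0.0809, edgeR). Among 16 microglial genes Itgam, the integrin alpha chain CD11b, fell by 0.61 (adjusted p = 0.0293, and 0.16 without adult replicate 2), while Cx3cr1, the fractalkine receptor, did not pass (-0.19, adjusted p = 0.109).

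Genes that were higher in adults included metabolic and stress genes with larger changes. Xdh, the xanthine dehydrogenase of purine breakdown, stood at 10.5, 8.93, 8.80 and 7.37 CPM in adults, and at 3.56, 5.04, 3.77, 2.69 and 3.43 CPM in adolescents. The groups were well separated, and the gene rose by 1.25 on the log2 scale, with an SE of 0.17 (adjusted p = 4.81e-05, edgeR). Plin4, a lipid droplet coat protein induced by glucocorticoids, stood at 22.3, 31.0, 12.9 and 17.3 CPM in adults, and at 7.85, 7.02, 4.91, 4.54 and 5.53 CPM in adolescents. Adult values were spread widely but all lay above the adolescent ones (log2 fold change 1.78, SE 0.28, adjusted p = 0.000439, edgeR). It was the only one of 22 tested glucocorticoid-responsive genes that passed, and their median was 0.17. The stress-responsive genes Fkbp5 and Sgk1 were at 0.27 (adjusted p = 0.392) and 0.39 (adjusted p = 0.377). Fmo2, a flavin monooxygenase, averaged 4.75 ± 2.21 CPM in adults (SD, n = 4) and 1.44 ± 0.698 CPM in adolescents (SD, n = 5), and rose by 1.66 on the log2 scale (adjusted p = 0.00768). It lost the call without adult replicate 1 (log2 fold change 1.27, adjusted p = 0.0604, edgeR), the library with the most meningeal RNA. In the average of the other 3 treatments, which share no library with these, Fmo2 was at 1.58 (adjusted p = 3.37e-05, edgeR).

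Of 18 tested heat shock and chaperonin genes, 2 rose, 0 fell and 16 did not pass. Hspa1b, an inducible heat shock protein of the Hsp70 family, stood at 7.22, 7.60, 6.91 and 7.95 CPM in adults, and at 5.50, 4.12, 3.13, 3.33 and 3.89 CPM in adolescents. All adult libraries were higher (log2 fold change 0.88, SE 0.17, adjusted p = 0.00445, edgeR). Its near-identical copy Hspa1a, with which it can share reads, was at 0.28 and did not pass. Hsf4, a heat shock transcription factor, averaged 16.2 ± 1.11 CPM in adults (SD, n = 4) and 11.3 ± 1.33 CPM in adolescents (SD, n = 5) and rose by 0.52 (adjusted p = 0.00188). The median of the list was 0.02, near that of all genes.

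The smallest p-value of all belonged to Jade2, a zinc finger protein of histone acetylation complexes. It stood at 107, 115, 102 and 111 CPM in adults, and at 86.9, 81.0, 79.2, 79.2 and 80.4 CPM in adolescents, with no overlap (log2 fold change 0.42, SE 0.04, adjusted p = 6.32e-07, edgeR). Crebl2, a CREB-like leucine zipper protein, rose by 0.38, Crebrf, a regulator of CREB3 turnover, by 0.35, and Cbx7, a Polycomb chromobox protein, by 0.34. Itpr1, the inositol trisphosphate receptor that releases calcium from the endoplasmic reticulum, averaged 784 ± 21.5 CPM in adults (SD, n = 4) and 625 ± 21.8 CPM in adolescents (SD, n = 5), and rose by 0.33 (adjusted p = 0.000266). Mettl7a1 rose by 0.47. These 6 genes passed whichever of the 9 libraries was left out. Of the clock genes, Cry1, a repressor of the clock, rose by 0.35 (adjusted p = 0.0368) and Dbp, an output gene, fell by 0.27 (adjusted p = 0.0113), while 17 of the 19 tested did not pass. Cry1 passed in 3 of the 9 fits that left out 1 library (adjusted p = 0.123 without adolescent replicate 3) and Dbp in 7 (0.08 without adult replicate 2, edgeR). The growth factor receptors Igf1r and Igf2r rose by 0.26 and 0.27, and the imprinted RNA H19 rose by 3.45 from a very low level, at 0.789, 1.11, 0.945 and 0.0647 CPM in adults and 0 to 0.214 CPM in adolescents. None of these 3 passed in all of the fits that left out 1 library, with adjusted p up to 0.08 for Igf1r and 0.102 for H19 without adult replicate 2 and 0.137 for Igf2r without adult replicate 5.

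Meningeal and immune lists had positive medians that rested on adult replicate 1. All 14 meningeal fibroblast genes had positive values with a median of 1.33, and 0 passed. Without adult replicate 1 the median was 0.22. Interferon-stimulated genes had a median of 0.35, against 0.07 without that library, and collagens 0.34, against -0.06. Among 15 tested genes of complement and immune activation, Serpina3n, a protease inhibitor of reactive astrocytes, rose by 0.51 (adjusted p = 0.0304), and 14 did not pass (median 0.44, and -0.01 without adult replicate 1). Serpina3n passed in 4 of the 9 fits that left out 1 library (adjusted p = 0.0978 without adult replicate 2, edgeR). Long nuclear RNAs had a median of 0.24, which was 0.06 without adult replicate 2 and 0.41 without adult replicate 1.

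**Figure D3:**
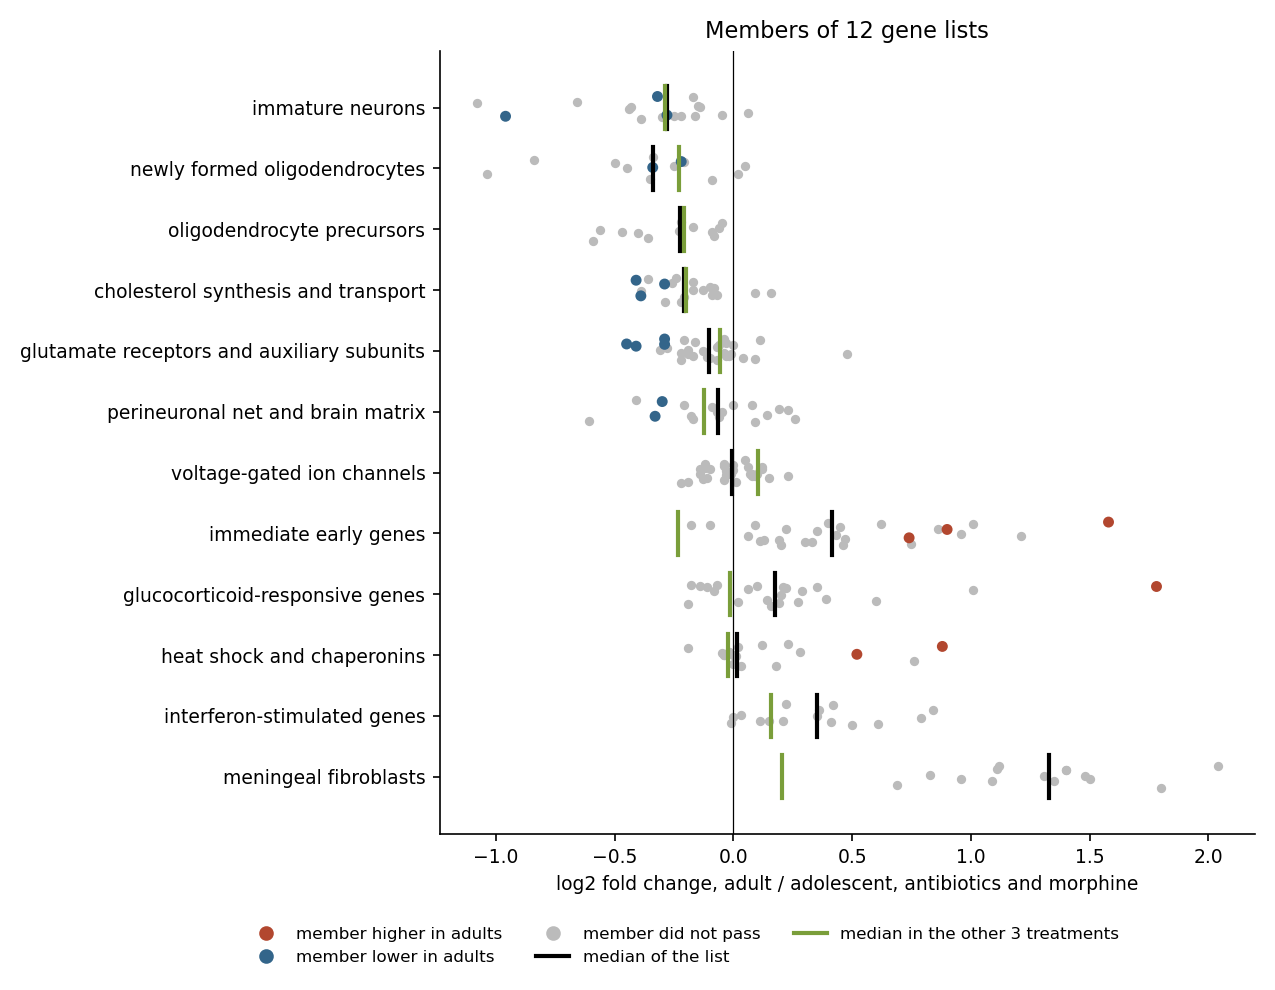
Log2 fold change, adult over adolescent with antibiotics and morphine (horizontal axis), of each tested member of 12 gene lists, with the list's median as a black bar and its median in the average of the other 3 treatments as a green bar. The bars nearly coincide for immature neurons (-0.28 and -0.29) and lie on opposite sides of 0 for immediate early genes (0.41 and -0.23).

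Of 26 tested immediate early genes, 24 had positive values, 3 rose (Fosb, Nr4a1 and Arc), 0 fell and 23 did not pass, and the median log2 fold change was 0.41. Over all 19332 genes tested, 10164 had positive values and 0.74% were called higher. The summed level of the list was 1628, 1583, 1613 and 2021 CPM in adult replicates 1, 2, 3 and 5, and 1240, 1281, 1197, 1184 and 1485 CPM in the adolescents. Adult replicate 5 was the highest and the groups did not overlap. Without adult replicate 5 the median was 0.34, and Fosb was the member that still passed.

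The promoters of 2 of these genes are printed with those of Nab2, which restrains the EGR factors made by immediate early genes, and of Marcksl1, the neurite gene described first. Each is a 300-base RefSeq window (GRCm38.p6) from 250 bases before the start site to 50 after it, written 5′ to 3′ on the gene's strand. Capitals mark TGACG on either strand, the core of the cAMP response element to which CREB binds. It is present in 20.8% of 32851 such windows, and the CArG box of serum response factor in 1.63%. The windows lie at chr7:19309996-19310295 (minus strand) for Fosb, chr15:101266596-101266895 (plus) for Nr4a1, chr10:127666654-127666953 (minus) for Nab2 and chr4:129513331-129513630 (plus) for Marcksl1.
Fosb: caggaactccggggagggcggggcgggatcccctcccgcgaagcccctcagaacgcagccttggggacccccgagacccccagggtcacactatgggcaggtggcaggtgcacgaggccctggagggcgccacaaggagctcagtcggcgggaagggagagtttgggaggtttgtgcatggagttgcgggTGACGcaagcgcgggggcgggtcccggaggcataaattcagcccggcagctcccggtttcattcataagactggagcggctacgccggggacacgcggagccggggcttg
Nr4a1: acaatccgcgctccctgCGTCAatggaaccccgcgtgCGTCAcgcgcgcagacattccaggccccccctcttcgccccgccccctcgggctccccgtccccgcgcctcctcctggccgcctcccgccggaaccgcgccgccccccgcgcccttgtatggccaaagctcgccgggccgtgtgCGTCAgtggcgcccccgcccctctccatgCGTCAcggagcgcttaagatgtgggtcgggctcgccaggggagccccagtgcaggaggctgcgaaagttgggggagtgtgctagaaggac
Nab2: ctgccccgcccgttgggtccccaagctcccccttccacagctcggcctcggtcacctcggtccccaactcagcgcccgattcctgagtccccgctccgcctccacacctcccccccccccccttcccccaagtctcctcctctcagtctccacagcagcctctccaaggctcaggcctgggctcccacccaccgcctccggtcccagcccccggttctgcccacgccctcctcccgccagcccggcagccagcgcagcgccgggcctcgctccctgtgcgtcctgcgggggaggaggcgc
Marcksl1: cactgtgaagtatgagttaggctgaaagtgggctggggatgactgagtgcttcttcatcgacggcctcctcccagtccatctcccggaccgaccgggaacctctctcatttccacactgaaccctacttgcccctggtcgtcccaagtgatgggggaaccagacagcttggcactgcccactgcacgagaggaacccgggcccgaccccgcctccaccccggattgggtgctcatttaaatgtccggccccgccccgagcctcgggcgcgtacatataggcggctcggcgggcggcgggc
The Fosb window held 1 match, 60 bases before the start, and the Nr4a1 window held 4. The other windows held 0, and none of the 4 held a CArG box. A match is a description of these letters, and its absence says only that they are not in the window.

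Fosb, which encodes an AP-1 subunit, stood at 15.6, 16, 16.9 and 18 CPM in adults, and at 8.93, 9.84, 8.97, 6.97 and 9.53 CPM in adolescents. The lowest adult library was above the highest adolescent one, and the gene rose by 0.90 on the log2 scale, with an SE of 0.14 (adjusted p = 0.000254, edgeR). In adolescents Fosb averaged 8.85 CPM with antibiotics and morphine and 13.2 CPM with antibiotics and saline. It averaged 12.7 CPM with water and morphine and 11.04 CPM with water and saline. In adults the means were 16.6, 15.6, 13.9 and 13.3 CPM in the same order. The contrast thus set the lowest adolescent mean against the highest adult mean, and differences between treatments within an age were not tested. The age call of Fosb held in all 9 fits that left out 1 library. Nr4a1, an orphan nuclear receptor, stood at 91.2, 93.7, 94.7 and 126 CPM in adults, and at 61.6, 60.5, 56.4, 55.6 and 68.4 CPM in adolescents. Its groups did not overlap either, and the log2 fold change was 0.74 (adjusted p = 0.041, edgeR), but it passed in only 1 of those 9 fits (0.62, adjusted p = 0.147, without adult replicate 5). Arc, which traffics AMPA receptors at active synapses, stood at 152, 156, 159 and 249 CPM in adults, and at 56.6, 45.5, 51.4, 67.7 and 79.9 CPM in adolescents. The separation was wide, with a log2 fold change of 1.58, yet the adjusted p was 0.04997 and it passed in 0 of the 9 fits (1.37, adjusted p = 0.147, without adult replicate 5). Arc varied strongly between libraries of the other groups, for example from 51.9 to 230 CPM in adults and from 116 to 254 CPM in adolescents given antibiotics and saline. Fos stood at 19.7, 19.9, 20.8 and 35.6 CPM in adults, and at 13.6, 15.0, 11.6, 13.7 and 23.6 CPM in adolescents, with overlap (log2 fold change 0.62, adjusted p = 0.425, edgeR).

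The same age contrast was taken in the other 3 treatments, which share no library with these 9. It gave 268 genes with antibiotics and saline (1.39%), 121 with water and morphine (0.626%), 655 with water and saline (3.39%) and 2939 in their average (15.2%, of which 6.54% of all genes tested were higher and 8.66% lower in adults). Of the 362 genes called here, 254 (70.2%) were called in the same direction in that average, where they made up 8.64% of the calls, and 3 were called in the opposite direction (Samd4b, Mfap3 and Nr4a1). In sign alone 341 of the 362 (94.2%) matched the average, against 68% of all genes tested. Across genes, which are not independent replicates, Pearson's r between the 2 sets of log2 fold changes was 0.49 over all 19332 genes and 0.83 over the 362. It is a description whose points share libraries within each set. The 362 were selected by their p-values in these 9 libraries, which can raise r by itself, so the 2 values of r are not to be compared.

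Marcksl1 was lower in adults in all 4 treatments, with log2 fold changes of -0.96 here, -1.17 with antibiotics and saline, -0.90 with water and morphine and -1.36 with water and saline. Xdh was higher in all 4, at 1.25 here, 1.76, 1.35 and 1.42 in the same order. Apc, Maz, Itpr1 and Jade2 likewise passed in all 4. Of the 17 immature neuron genes 12 fell in the average of the other treatments (median -0.29), and of the 19 cholesterol genes 11 fell (median -0.20). The immediate early genes went the other way there, with 0 that rose, 9 that fell and a median of -0.23. Fosb was at 0.21 in that average (adjusted p = 0.0761) and Arc at -0.44 (adjusted p = 0.251), while Nr4a1 fell by 0.39 (adjusted p = 0.0234). The differences between these values and those with antibiotics and morphine did not pass the direct test (adjusted p = 0.164 for Fosb, 0.258 for Arc and 0.0749 for Nr4a1, edgeR). No member of the immediate early list passed that test.

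**Figure D4:**
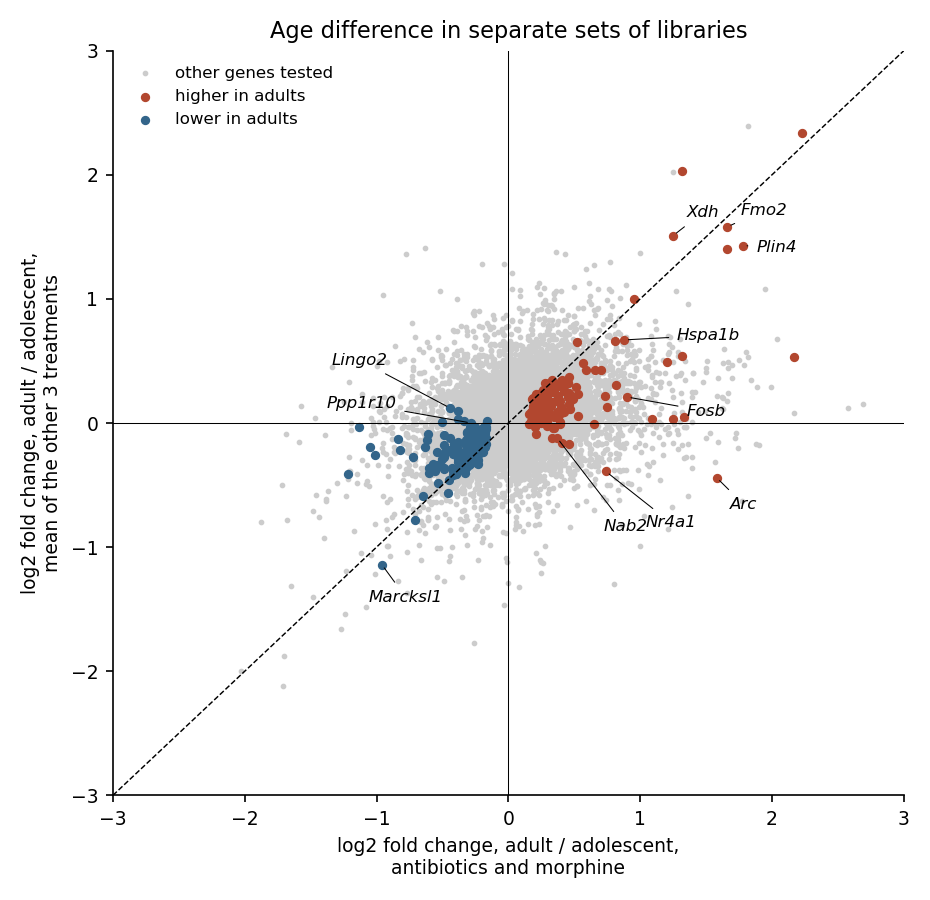
Log2 fold change, adult over adolescent, with antibiotics and morphine (horizontal axis) and in the average of the other 3 treatments (vertical axis), which share no library, for genes within 3 on both axes, with genes called here in red (higher in adults) and blue (lower). The dashed line marks equal values, and the colours follow the horizontal axis by construction. Marcksl1 (-0.96 and -1.14) and Xdh (1.25 and 1.51) lie near the line, and Nr4a1 (0.74 and -0.39) and Arc (1.58 and -0.44) lie in the lower right part of the plot.

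The direct test asked where the age difference with antibiotics and morphine departed from the average of the other 3 treatments. It called 6 of 19332 genes (0.031%), and 1197 had an unadjusted p under 0.05. Nab2, the EGR corepressor, had the smallest p. It stood at 42.1, 39.6, 38.1 and 46.9 CPM in adults with antibiotics and morphine, and at 36.7, 32.1, 31.3, 27.1 and 33.9 CPM in adolescents, and these did not overlap. In the other treatments adults and adolescents averaged 35.5 ± 3.52 CPM (SD, n = 5) and 43.5 ± 1.87 CPM (SD, n = 3) with antibiotics and saline, 37.4 ± 2.29 and 40.4 ± 1.12 CPM (SD, n = 5 each) with water and morphine, and 36.9 ± 1.06 (n = 3) and 35.8 ± 2.55 CPM (n = 5) with water and saline. The age difference was 0.37 here (adjusted p = 0.00312) and -0.12 in the average of the others (adjusted p = 0.0521). These differed by 0.49 on the log2 scale (SE 0.08, adjusted p = 0.0182, edgeR), in 8 of 9 fits that left out 1 library. Without adult replicate 5, which had the highest immediate early level, the difference was 0.42 (adjusted p = 0.0955). The antisense gene Gm16229, which overlaps Nab2, moved alike (0.41 here, adjusted p = 0.0384), and reads of the pair cannot be told apart, because no strand setting for the counts is stated in the sources used here.

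The age difference of Stk40, a serine/threonine kinase-like gene, was 0.21 here and did not pass (adjusted p = 0.154), against -0.25 in the average of the other treatments (adjusted p = 0.000284), and the difference between them was 0.46 (adjusted p = 0.041, edgeR). Mfap3, a microfibril-associated glycoprotein gene, averaged 25.5 ± 0.92 CPM in adults (SD, n = 4) and 20.3 ± 1.01 CPM in adolescents (SD, n = 5) with antibiotics and morphine, against 21.1 ± 1.12 CPM (SD, n = 5) and 24.3 ± 1.17 CPM (SD, n = 3) with antibiotics and saline. Its age effect differed from the average of the others by 0.45 (adjusted p = 0.0242). Samd4b, an RNA-binding repressor of translation, differed by 0.29 (adjusted p = 0.0246). The remaining calls ran the other way. Ppp1r10, a nuclear targeting subunit of protein phosphatase 1, stood at 44.3, 40.9, 38.9 and 39.7 CPM in adults and at 51.7, 50.5, 49.0, 49.6 and 47.8 CPM in adolescents. It was lower in adults here without overlap (log2 fold change -0.28, adjusted p = 0.000273), while the average of the others was 0.00, and the difference was -0.28 (adjusted p = 0.0246, edgeR). Lingo2, a leucine-rich repeat membrane protein, differed by -0.55 (adjusted p = 0.0488).

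These 6 calls were fragile. In the 9 fits that left out 1 library, 0 to 3 genes passed, and 0 passed without adult replicate 5. Mfap3 and Ppp1r10 each passed in 4 of the 9 fits, Samd4b and Stk40 in 1 and Lingo2 in 0, with adjusted p up to 0.0955 for Mfap3 and 0.214 for Lingo2 without adult replicate 5, 0.0962 for Ppp1r10 without adult replicate 3, 0.118 for Samd4b without adult replicate 1 and 0.137 for Stk40 without adolescent replicate 1.

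**Figure D5:**
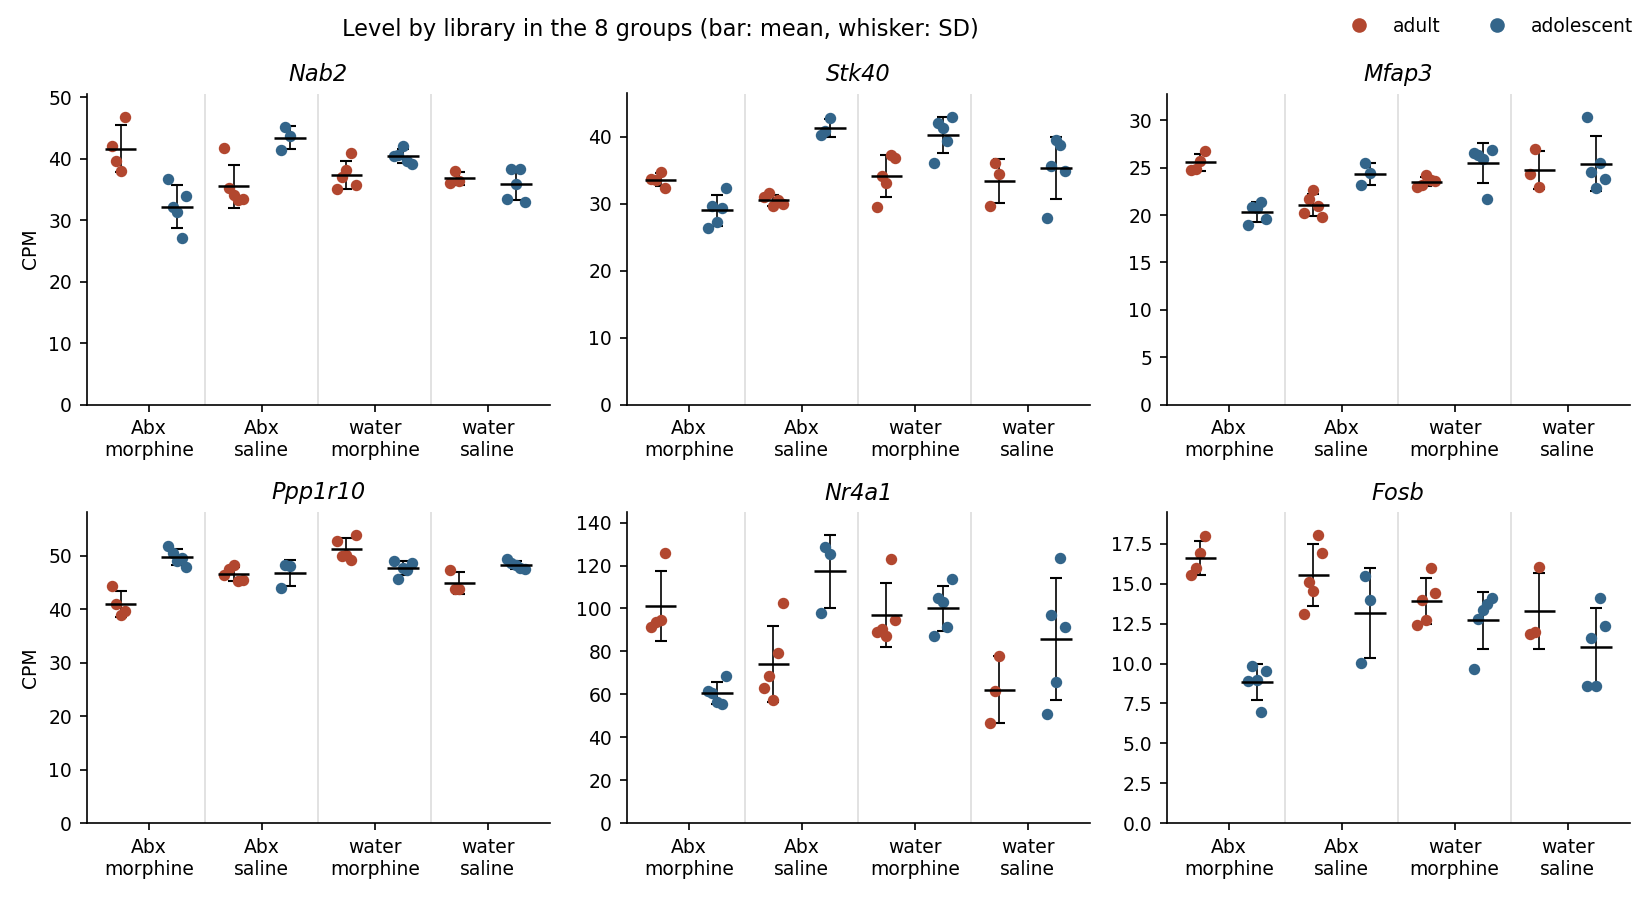
CPM (vertical axes, from 0) of 6 genes in each library of the 8 groups, adults (red) left of adolescents (blue) in each treatment, with the mean as a bar and the SD as a whisker; Abx stands for antibiotics. In adolescents Nab2 averages 32.2 CPM with antibiotics and morphine and 43.5 CPM with antibiotics and saline, while in adults it averages 41.7 and 35.5 CPM.

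Set against the age effect with antibiotics and saline, 5 genes passed (0.0259%), with 923 at an unadjusted p under 0.05, and 2 to 5 passed when 1 library was left out. Nab2 differed by 0.66 (adjusted p = 0.00499, edgeR), Stk40 by 0.65 (adjusted p = 0.016), Gm16229 by 0.85 (adjusted p = 0.0312), Mfap3 by 0.54 (adjusted p = 0.0342) and Zbtb16, a transcription factor induced by glucocorticoids, by -0.74 (adjusted p = 0.0499). The calls of Nab2 and Stk40 held in all 9 fits that left out 1 library. Those of Mfap3 and Zbtb16 held in 1 each (adjusted p = 0.145 for both, without adult replicate 5 for Mfap3 and without adult replicate 1 for Zbtb16). Zbtb16 averaged 75 ± 6.25 CPM in adults (SD, n = 4) and 80.6 ± 4.86 CPM in adolescents (SD, n = 5) with antibiotics and morphine. With antibiotics and saline it averaged 88.6 ± 12.8 CPM in adults (SD, n = 5) and 57.2 ± 2.10 CPM in adolescents (SD, n = 3), which did not overlap. Against water and morphine, Ppp1r10 was the single gene that passed (0.00517%), while 810 had an unadjusted p under 0.05. It had a difference of -0.38 (adjusted p = 0.0044, edgeR). It held in all 9 fits that left out 1 library, but not with no filter on low counts (adjusted p = 0.144) or with all 37 libraries (adjusted p = 0.0524). Against water and saline edgeR called 0 genes and DESeq2 called 3, while 1678 genes had an unadjusted p under 0.05 in edgeR.

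The genes that were lower in adults were richer in G and C, with a median transcript GC content of 54.6%, against 48.8% for those that were higher and 49.6% for all genes tested. Genes that were higher had longer transcripts, at a median of 4488.5 bases, against 2997 bases for those that were lower and 2998 for all. With counts centred within bins of GC content, 333 genes passed (151 higher, 182 lower), 280 of them shared with the 362. With bins of transcript length 323 passed, 295 of them shared. Several named genes overlap others on the opposite strand in GENCODE M21, among them Cbx7 with Apobec3, Plin4 with Hdgfl2, Slc15a3 with Tmem132a, Cnih2 with Yif1a, Dbp with Sphk2 and Nab2 with Stat6, and their counts are uncertain for the same reason as those of Nab2. Some overlap protein-coding genes on the same strand, which a strand setting would not separate. Among these are Grin3a with Ppp3r2, Samd4b with Pak4, and Tubb3 and Itgam with predicted genes.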

How the data were processed

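The values deposited by the authors are whole-number read counts for each gene in each library. STAR 2.7.10a, the genome build mm10 and DESeq2 are listed in the submitters' processing notes. What DESeq2 was used for, the annotation and the strand setting were not given in the sources used here. Per the labels, RNA came from a Qiagen RNeasy Mini column, and an ABclonal Fast RNA-seq kit was used for the libraries. Symbols came from GENCODE M21, which matched 52073 of 56980 identifiers, and the 4907 unmatched ones held 3.86% of all counts. No gene coordinates are given for the counts, since nearly all identifiers carry a later version than in that release. Promoter windows and their coordinates are RefSeq's (GRCm38.p6) and were found for 55 of the 74 named genes.

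Counts of the 35 libraries with at least 1000000 counts were fitted together, with a mean per group, by edgeR 4.0.16 in R 4.3.3 (TMM, filterByExpr on the 8 groups, robust quasi-likelihood). This left 19332 genes, and p-values were adjusted over all of them (Benjamini-Hochberg, threshold 0.05). CPM values use TMM-scaled totals, which ranged before scaling from 10630727 to 31560468 counts in the 35 libraries, and the spread between libraries is the error given. Contrasts were adult minus adolescent within each treatment and in the average of 3 treatments, and the differences between such contrasts. The procedure was tested on simulated counts drawn independently for each gene and library. Libraries that stand apart, as some do here, were not part of that test.

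Gene lists (48) are described by counts of members and medians. Named genes were, per direction, the 10 of smallest p and the 8 of largest change out of the called genes of at least 1 CPM with a standard symbol. Added to these were up to 5 called members of each list, 10 fixed genes and up to 6 called genes per direction of each difference. Where a difference had no called gene, as against water and saline, a few genes of smallest p such as Ntn5 were named instead. Predicted or clone-like genes were not named, apart from Gm16229, named after its values were seen because it overlaps Nab2, some genes were left out by rank, and some results for single genes are not reported here. Members, lists and rules were chosen with earlier results of these data known. The alternatives tried were DESeq2 1.42.0, DESeq2 size factors in edgeR, no filter on low counts, fits of the 9 compared libraries, of all 37 and of 34, limma-voom (limma 3.58.1) with sample weights, a term for libraries with more than 20 islet hormone counts, the replicate number as a block, and leaving out each of the 9 libraries. Offsets within 20 bins of transcript GC content or length were added after seeing the data. Same-numbered adult and adolescent libraries did not deviate together (r = -0.17, 0.16, 0.03 and -0.09 for replicates 1, 2, 3 and 5), so the numbers were not taken as pairs.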

Additional observations from a re-analysis of the deposited data

Results flagged for a closer look

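Some libraries lay far from the rest of their group, by the ratio of the gap to the nearest library to the group's range (Dixon's 95% critical value). This was so for 20 of 244 groups of values examined, and chance gives about 1 in 20. In adults, replicate 5 stood high for Nr4a1 (126 CPM), Arc (249 CPM), Fos (35.6 CPM) and the summed immediate early genes (2021 CPM). Adult replicate 1 stood high for Fmo2 (8.06 CPM), the summed meningeal fibroblast genes (2834 CPM) and the summed collagens (775 CPM), and low for the summed voltage-gated channels (5197 CPM). Adult replicate 3 stood high for Bdh1 (46.8 CPM) and low for Nrp2 (20.9 CPM), a semaphorin receptor.

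In adolescents, replicate 4 stood high for the summed myelin genes (7251 CPM) and the summed genes of newly formed oligodendrocytes (1004 CPM). Adolescent replicate 1 stood high for Jade2 (86.9 CPM) and Fkbp5 (56.7 CPM), replicate 3 for H19 (0.214 CPM), and replicate 5 for Arsb (127 CPM), Fos (23.6 CPM) and the summed endocannabinoid genes (1279 CPM). Adolescent replicate 2 stood low for Apc (496 CPM) and Atxn7l3b (217 CPM).

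The age effect with antibiotics and morphine differed from that in other treatments in the direct test of the difference (log2 scale, edgeR, adjusted p under 0.05). From the average of the other 3 treatments the differences were 0.49 for Nab2, 0.45 for Mfap3, -0.28 for Ppp1r10, 0.29 for Samd4b, 0.46 for Stk40 and -0.55 for Lingo2. From antibiotics and saline they were 0.66 for Nab2, 0.65 for Stk40, 0.85 for Gm16229, 0.54 for Mfap3 and -0.74 for Zbtb16, and from water and morphine -0.38 for Ppp1r10.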

How the results depend on the processing

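No gene called in the age comparison changed direction in any alternative run, and 30 of the 61 named and called genes passed whichever of the 9 libraries was left out. Among genes that were not called, the value changed sign for Ntn5 (0.03, but -0.03 without adolescent replicate 1, and from -0.05 to 0.08 over all 9 fits that left out a library) and Oprm1 (-0.12, and from -0.34 to 0.04 over those fits, positive without adult replicate 2). Counts of calls moved more, and the cause was not tested.

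The age comparison, with 362 calls (143 higher, 219 lower), gave 572 (238 higher, 334 lower) in DESeq2, 872 (354 and 518) in limma-voom with sample weights, 815 (291 and 524) in 34 libraries without adolescent water saline replicate 1, 487 (171 and 316) in the 9 compared libraries alone and 232 (77 and 155) in all 37. With no filter on low counts it gave 269, of which 54 were higher and 215 lower, so the share of higher calls was 20.1%. With an islet term it gave 276 (94 and 182). Of the 362, 205 were still called with the islet term, 228 with no filter and 266 in the 9 libraries alone. In DESeq2 350 of them were still called, in limma-voom 358, in 34 libraries 362 and in all 37 libraries 232. Leaving out 1 library gave 108 to 499 calls (40 to 208 higher, 68 to 291 lower). The share of higher calls was 50.2% without adult replicate 1.

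The difference from the average of the other 3 treatments, with 6 calls (4 higher, 2 lower), gave 19 (15 and 4) in DESeq2, 21 (19 higher) in limma-voom, 20 (17 higher) in 34 libraries, 1 (1 and 0) in all 37, and 1 lower with no filter, GC bins or length bins. Leaving out 1 library gave 0 to 3 (0 to 3 higher, 0 to 1 lower). The difference from water and saline, with 0 calls, gave 3 in DESeq2, 2 with no filter and 0 to 0 without 1 library. The difference from water and morphine, with 1, gave 0 with no filter or in all 37 libraries, 2 with GC bins and 1 to 2 without 1 library. The difference from antibiotics and saline, with 5, gave 18 in DESeq2, 17 in limma-voom, 11 in 34 libraries, 3 with no filter and 2 to 5 without 1 library.

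In the other treatments the age comparison gave, with water and morphine, 230 in DESeq2, 292 in 34 libraries, 78 in all 37 and 645 in limma-voom. With antibiotics and saline it gave 485, 652, 157 and 1280 in the same settings, and limma-voom gave 1837 with water and saline and 5011 in the average of the 3. Leaving out 1 of the 9 libraries gave 114 to 138 with water and morphine, 242 to 291 with antibiotics and saline, 564 to 662 with water and saline and 2807 to 2974 in their average.

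With the replicate number as a block, the age comparison gave 286 calls (114 higher, 172 lower), 268 of them shared with the main ones. The difference from the other 3 treatments gave 9 (7 higher), and that from antibiotics and saline gave 9.

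With 4 and 5 libraries, most calls were small, and 3041 genes had an unadjusted p under 0.05. Genes under 1 CPM, such as H19, rest on few counts.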
